A study of Homo sapiens with 8 samples.

Results

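Box H/ACA and Cajal body RNAs were followed in RMG1, an established line grown from a clear cell carcinoma of the ovary. They were chosen by name and by their total count: 97 of the 214 genes whose symbol begins with SNORA or SCARNA had at least 40 counts summed over the 8 libraries. This total over the 8 libraries selected the members, so it is a description and nothing was tested with it. Of the 97, 80 were SNORA and 17 were SCARNA genes, out of 57736 genes in the table. Of the SNORA and SCARNA genes left out, 47 had 1 to 39 counts and 70 had 0. Just inside the threshold lay SNORA63E and SNORA36B with 40 counts each, and just outside it SNORA15 with 38 and SNORA41 with 37.

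Total RNA was sequenced from 4 groups of 2 libraries. The wild-type cells carried ARID1A and CAPH2 unaltered, and the ARID1A-knockout cells, labelled as made by CRISPR, kept wild-type CAPH2. The CAPH2-knockdown cells, labelled shCAPH2, and their shControl cells were both ARID1A wild type. ARID1A helps the SWI/SNF complex, which moves nucleosomes, to bind DNA, and CAPH2, encoded by NCAPH2, belongs to condensin II, a complex that shapes chromosomes. The labels state neither the number of knockout clones nor separate cultures for the libraries of 1 group. The p-values therefore cover the spread between libraries alone, and that spread may be technical.

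Box H/ACA RNAs are short, stable RNAs that fold into a pair of hairpins joined by the H box and closed by the ACA box near the 3′ end. Each assembles with the pseudouridine synthase DKC1 and the proteins GAR1, NHP2 and NOP10, and most guide the conversion of chosen uridines in ribosomal RNA to pseudouridine in the nucleolus. Those named SCARNA are held in Cajal bodies, nuclear bodies scaffolded by coilin (COIL), where they guide modification of spliceosomal RNAs; this group includes RNAs built on the other guide RNA class, box C/D, and composites of both. In human cells nearly all are cut from introns of other genes, called host genes, so that a member and its host are made as a single transcript.

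The reference transcripts (GENCODE 29, build GRCh38; the counts were made on hg19) gave the sequences of the members. Those printed here are SNORA31, SNORA31B and SCARNA13, whose knockout libraries were the lowest of the 8, SNORA35B, SNORA30 and SNORA40B, 3 of the 8 members whose wild-type libraries were the lowest, and SNORA40, which forms with SNORA40B a near-identical pair whose reads the counting had to divide. Capitals mark the H box, searched as ANANNA on the RNA strand 40 to 100 bases before the ACA, and the ACA 2 to 4 bases from the 3′ end; a sequence without capitals held no such match. SNORA31 (ENSG00000199477) lies at chr13:45337480-45337609, minus strand, and SNORA31B (ENSG00000253051) at chr13:45336314-45336447, minus strand, both within TPT1. SCARNA13 (ENSG00000252481) lies at chr14:95533355-95533629, minus strand, within the noncoding gene SNHG10. SNORA35B (ENSG00000271907) lies at chrX:115126316-115126444, minus strand, within LRCH2, and SNORA30 (ENSG00000206755) at chr16:30710537-30710665, plus strand, within SRCAP. SNORA40 (ENSG00000210825) lies at chr11:93735111-93735236, minus strand, within TAF1D, and SNORA40B (ENSG00000208308) at chr2:135136628-135136755, plus strand, within RAB3GAP1.
SNORA31: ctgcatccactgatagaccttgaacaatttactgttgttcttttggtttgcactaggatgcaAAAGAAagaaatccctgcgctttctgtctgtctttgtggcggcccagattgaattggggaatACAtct
SNORA31B: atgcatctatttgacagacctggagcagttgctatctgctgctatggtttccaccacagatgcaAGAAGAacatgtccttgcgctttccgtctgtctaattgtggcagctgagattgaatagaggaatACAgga
SCARNA13: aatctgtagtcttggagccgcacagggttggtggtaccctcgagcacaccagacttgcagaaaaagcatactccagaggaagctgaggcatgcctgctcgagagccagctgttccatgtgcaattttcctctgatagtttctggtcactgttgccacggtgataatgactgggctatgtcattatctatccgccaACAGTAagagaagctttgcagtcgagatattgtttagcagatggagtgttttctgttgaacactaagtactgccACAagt
SNORA35B: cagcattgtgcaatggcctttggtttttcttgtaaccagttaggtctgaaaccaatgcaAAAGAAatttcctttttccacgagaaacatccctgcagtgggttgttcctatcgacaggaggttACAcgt
SNORA30: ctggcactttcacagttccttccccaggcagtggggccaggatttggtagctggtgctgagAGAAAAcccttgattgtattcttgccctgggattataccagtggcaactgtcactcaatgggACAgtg
SNORA40: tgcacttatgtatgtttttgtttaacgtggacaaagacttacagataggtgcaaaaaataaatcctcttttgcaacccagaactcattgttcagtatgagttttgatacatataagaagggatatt
SNORA40B: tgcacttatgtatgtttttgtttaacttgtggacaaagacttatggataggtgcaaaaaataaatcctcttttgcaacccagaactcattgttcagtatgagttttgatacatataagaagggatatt

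The boxes checked the names. An ACA at the stated distance from the 3′ end was found in 67 of the 80 SNORA members (83.8%) and 11 of the 17 SCARNA members (64.7%), against 2 of the 82 box C/D genes (SNORD) with at least 40 counts (2.4%). Together with an H box it was found in 63 SNORA members (78.8%), 11 SCARNA members (64.7%) and 2 box C/D genes (2.4%). SNORA31 and SNORA31B, from the same host, aligned with 99 identical bases, 29 mismatches and 8 gap positions (72.8% identical), whereas SNORA40 and SNORA40B aligned with 124 identical bases, 2 mismatches and 2 gap positions (96.9%). Members were 121 to 353 bases long, with a median of 135, and their GC content ran from 32.0% to 64.0%. The annotation placed 93 of the 97 on the same strand inside 76 host genes, 79 of the members in protein-coding and 14 in noncoding hosts, and 9 hosts held more than 1 member. For 23 members, among them SNORA31B and the members in TAF1D and EIF4A2, the whole sequence also lay inside a transcript of another gene, so reads from that transcript and from the short RNA cannot be told apart.

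Each library held between 24559547 and 37378691 counts, and 1 count was worth 0.0261 to 0.0413 CPM, a count divided by library size after scaling by trimmed means of M values (TMM). ARID1A itself stood at 8.80 and 12.1 CPM in the wild-type and 6.66 and 5.61 CPM in the knockout libraries (log2 fold change -0.77, adjusted p = 0.00274). NCAPH2 stood at 24.0 and 25.8 CPM in the shControl and 8.98 and 8.74 CPM in the knockdown libraries (-1.49). It was also lower in the knockout than in the wild-type libraries, at 21.0 and 23.9 against 26.8 and 30.0 CPM (-0.34, adjusted p = 0.0144; -0.15, adjusted p = 0.218, against shControl). Of 8 epithelial and clear cell markers measured, the summed level was 3133 to 3668 CPM per library, with PAX8, KRT7, KRT8, KRT18, KRT19, EPCAM, CDH1 and NAPSA all present. In knockout against wild type 2 of the 8 were higher and 4 lower, among them CDH1 (0.96, adjusted p = 7.93e-08) and KRT8 (-0.70, adjusted p = 1.06e-06). Summed markers of fibroblasts reached at most 1.12 CPM, of leukocytes 5.13 CPM and of endothelium 0.124 CPM, with COL1A2, COL3A1 and CD3E at 0 in every library. PTPRC averaged 2.12 CPM in the knockout and 0.0207 CPM in the wild-type libraries. LUM, a fibroblast marker, had 13 and 27 counts in the knockout libraries and 0 in the other 6. The part of these markers in the results that follow was not tested.

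A few members made up most of the signal. SNORA31B, SNORA49 and SNORA73B together took 38.2% of the members' summed CPM, and the 12 highest took 70.0%. Per kilobase of their own length, SNORA31B stood at 1840 CPM on average over the 8 libraries and SNORA49, held in the chromatin remodeller gene EP400, at 1770 CPM. SNORA73B followed at 892 CPM per kilobase; it belongs to a family that acts in cleavage of the ribosomal RNA precursor, and its host is the noncoding SNHG3. SNORA81 in the translation factor gene EIF4A2 had 596 and SNORA22, in the pseudogene CCT6P1, 582 CPM per kilobase. The highest Cajal body RNAs per kilobase were SCARNA7 in the importin gene KPNA4 with 272 CPM, SCARNA1 in PPP1R8 with 256 CPM and SCARNA10 in the condensin I gene NCAPD2 with 192 CPM. The median member had 18.6 CPM per kilobase, 25 members had 100 or more, and 34 had under 10. SNORA31B stood at 343 and 264 CPM in the wild-type libraries and SNORA49 at 262 and 191 CPM, so SNORA31B was higher in each of them. Whether these neighbours in the order differ beyond the spread between libraries was not tested.

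**Figure D1:**
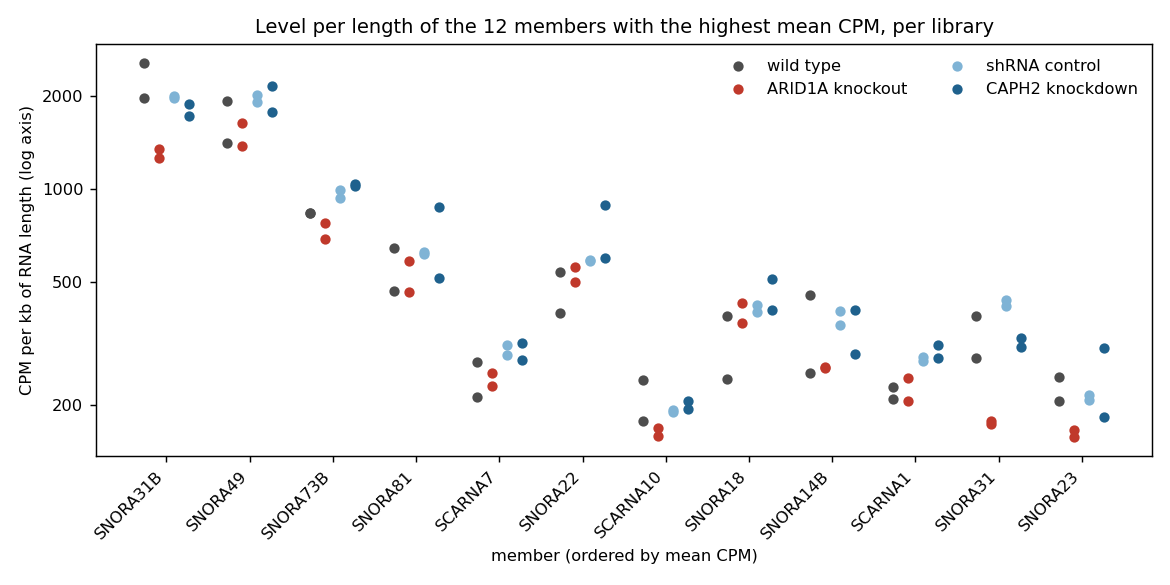
Level per kilobase of RNA length (CPM per kb, log axis) in each library for the 12 members with the highest mean CPM, ordered by mean CPM; each point is 1 library and colours mark the 4 groups of 2. SNORA31B and SNORA49 are the highest, and the knockout points of SNORA31B and SNORA31 lie under all other points of those members.

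Summed over the members, the level was 1773 and 1632 CPM in the wild-type, 1567 and 1394 CPM in the knockout, 1895 and 1893 CPM in the shControl and 1771 and 2091 CPM in the knockdown libraries. Both knockout libraries were the lowest of the 8, and the knockdown libraries overlapped both control groups. The 17 SCARNA members alone ran from 308 to 405 CPM, with the knockout libraries again lowest at 335 and 308 CPM. In RNA of whole cultures, fewer cells with an RNA and less of it per cell cannot be told apart. Box C/D RNAs, the other class of short guide RNAs, followed another order: their sum was 8754 and 8642 CPM in the wild-type, 15136 and 13456 CPM in the knockout, 15808 and 15785 CPM in the shControl and 9294 and 7191 CPM in the knockdown libraries.

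Libraries of the same group differed more in the median member than in the median gene. The median absolute log2 difference between the libraries of a group was 0.36 over the members tested in wild type, 0.20 in knockout, 0.12 in shControl and 0.22 in knockdown. Over all genes tested with a mean of at least 5 CPM it was 0.12, 0.07, 0.07 and 0.07, and over the 39 members at that level 0.37, 0.17, 0.09 and 0.22. Knockdown library 2 lay above library 1 by a median of 0.20 on the log2 scale over the members, and knockout library 2 lay below library 1 (median -0.16), while the median over all genes was 0.00 in both groups.

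Which of these RNAs differed without ARID1A was asked by comparing knockout with wild-type cells. Of the 92 members with enough counts to be tested, 5 rose and 8 fell at an adjusted p under 0.05 (14.1% called). Over all 16657 genes tested, 34.5% were called, 16.8% higher and 17.8% lower. The median log2 fold change was -0.06 over the members and 0.00 over all genes. The members that fell were SNORA70, SNORA79, SNORA31, SNORA31B, SCARNA13, SCARNA10, SNORA8 and SNORA73B, and those that rose were SNORA47, SNORA35B, SNORA30, SNORA40B and SNORA74B. Leaving out each library in turn gave 3 to 11 members called higher and 4 to 14 called lower; the highest counts of both, 11 and 14, came without wild-type library 1, and the lowest count of fallen members came without knockout library 2.

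Both members held in TPT1 fell in the knockout. TPT1 encodes the translationally controlled tumour protein, an abundant protein whose mRNA carries the signal that ties translation to growth. SNORA31 stood at 37 and 50.6 CPM in the wild-type, 22.5 and 23.1 CPM in the knockout, 56.9 and 54.5 CPM in the shControl and 42.7 and 40.2 CPM in the knockdown libraries. Both knockout libraries were lower than the other 6, and the fold change against wild type was -0.95 (SE 0.12, adjusted p = 7.43e-05). SNORA31B stood at 343 and 264 CPM in the wild-type, 181 and 169 CPM in the knockout, 268 and 264 CPM in the shControl and 230 and 252 CPM in the knockdown libraries. Again the knockout libraries were the lowest, with a fold change of -0.79 (SE 0.10, adjusted p = 9.19e-05). TPT1 itself stood at 3280 and 2820 CPM in the wild-type, 1370 and 1450 CPM in the knockout, 2840 and 3100 CPM in the shControl and 3040 and 2950 CPM in the knockdown libraries, a fold change of -1.12 (SE 0.07, adjusted p = 2.76e-07) between knockout and wild type. Host and both members thus fell, and both calls held without any single library, where SNORA31 ranged from -1.15 to -0.70 and SNORA31B from -0.97 to -0.59. For SNORA31B, whose sequence lies inside a TPT1 transcript, reads of the host and of the short RNA cannot be told apart. SNORA31 is not contained in another transcript of the annotation. It lies within TPT1, however, and any reads of the uncut host transcript were not separated from those of SNORA31.

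SCARNA13 and SNORA8 fell without a called change of their hosts. SCARNA13, a long Cajal body RNA with its own H and ACA boxes, stood at 32.3 and 38.4 CPM in the wild-type, 26.3 and 23.3 CPM in the knockout, 34.8 and 32.7 CPM in the shControl and 38.5 and 41.4 CPM in the knockdown libraries. The knockout libraries were lowest, and the fold change of -0.51 (SE 0.10, adjusted p = 0.0015) held without any single library (-0.63 to -0.38). Its noncoding host SNHG10 had a fold change of -0.22 (adjusted p = 0.304) at 5.46 to 7.24 CPM. SNORA8, 1 of 6 members in TAF1D, whose product is a subunit of an RNA polymerase I factor, stood at 18.6 and 20.2 CPM in the wild-type and 14.9 and 15.8 CPM in the knockout libraries. Its fold change was -0.34 (SE 0.08, adjusted p = 0.0094), while TAF1D changed by 0.11 (adjusted p = 0.173). The sequence of SNORA8 also lies inside a transcript of another gene, so reads of that transcript and of the short RNA cannot be told apart. Leaving out wild-type library 2 or knockout library 1 ended the SNORA8 call (highest adjusted p = 0.074), as did DESeq2 (adjusted p = 0.0529).

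The remaining falls were less stable. SCARNA10, a composite Cajal body RNA, stood at 58.7 and 79.5 CPM in the wild-type and 55.8 and 52.6 CPM in the knockout libraries (-0.35, SE 0.11, adjusted p = 0.0274), and wild-type library 2 held the difference, since without it the value was -0.11 (adjusted p = 0.258). The call was also lost without either knockout library. Its host NCAPD2, a condensin I subunit gene, changed by -0.14 (adjusted p = 0.196). SNORA73B was at 171 CPM in both wild-type and 158 and 140 CPM in the knockout libraries (-0.20, SE 0.06, adjusted p = 0.0335), a call lost without knockout library 2 (-0.12, adjusted p = 0.29) and without either knockdown library. SNHG3, its host, fell by 0.46 on the log2 scale (adjusted p = 0.00893). SNORA79 stood at 2.19 and 1.59 CPM in the wild-type and 0.932 and 0.705 CPM in the knockout libraries (-1.20, SE 0.34, adjusted p = 0.0164), and its host GTF2A1, a general transcription factor subunit gene, fell by 0.66 on the log2 scale (adjusted p = 4.17e-06). Leaving out wild-type library 1 or knockout library 2 ended the SNORA79 call (highest adjusted p = 0.104). SNORA70, in the ribosomal protein gene RPL10, had the steepest fall at -1.30 (SE 0.43, adjusted p = 0.0347) from 65 and 80 counts in wild type to 57 and 27 counts in knockout. That call was lost without knockout library 2 (-0.84, adjusted p = 0.217) or either wild-type library, and another gene named SNORA70 shares 54.3% of its 20-base words. The whole sequence of SNORA70 in RPL10 also lies inside a transcript of another gene. Reads of that transcript and of the short RNA cannot be told apart.

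Among the members that rose with over 10 counts in every library, SNORA35B had the largest fold change. It stood at 1.16 and 0.652 CPM in the wild-type (28 and 18 counts), 4.99 and 3.11 CPM in the knockout, 4.33 and 3.18 CPM in the shControl and 3.15 and 3.71 CPM in the knockdown libraries. The wild-type libraries were the 2 lowest, and the fold change of knockout against wild type was 2.17 (SE 0.34, adjusted p = 0.000399; 1.79 to 2.62 without single libraries). Its X-linked host LRCH2 rose by 1.68 (SE 0.21, adjusted p = 6.84e-05), from 2.15 and 1.77 CPM to 6.19 and 6.35 CPM. SNORA30, in the chromatin remodeller gene SRCAP, stood at 2.89 and 2.25 CPM in the wild-type, 5.29 and 5.14 CPM in the knockout, 4.95 and 4.47 CPM in the shControl and 3.72 and 3.90 CPM in the knockdown libraries. Its fold change was 1.03 (SE 0.19, adjusted p = 0.00127), with no called change of SRCAP (-0.13, adjusted p = 0.297).

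SNORA40B and SNORA74B rose by less. SNORA40B, in RAB3GAP1, stood at 6.12 and 4.60 CPM in the wild-type and 7.04 and 8.12 CPM in the knockout libraries (0.51, SE 0.15, adjusted p = 0.0249), and leaving out wild-type library 2 (0.31, adjusted p = 0.195) or knockout library 2 ended the call. Reads of SNORA40B and its near copy SNORA40 could be divided between them by the counting, so both values are uncertain. SNORA74B stood at 8.56 and 7.82 CPM in the wild-type and 10.5 and 10.9 CPM in the knockout libraries (0.39, SE 0.14, adjusted p = 0.0476), a call that ended when any of these 4 libraries was left out (highest adjusted p = 0.185). Its host ATP6V0E1, a subunit gene of the vacuolar proton pump, rose by 0.64 (adjusted p = 1.34e-05). SNORA47, in ZBED3, had 3 and 3 counts in the wild-type and 15 and 26 counts in the knockout libraries, a ratio of 4.73 scaled to library size with an exact 95% counting interval of 2 to 13.6 that covers counting error only. The fitted value was 2.20 (adjusted p = 0.0321), which was lost without any 1 of these 4 libraries, and ZBED3 rose by 1.2 (adjusted p = 0.0206).

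**Figure D2:**
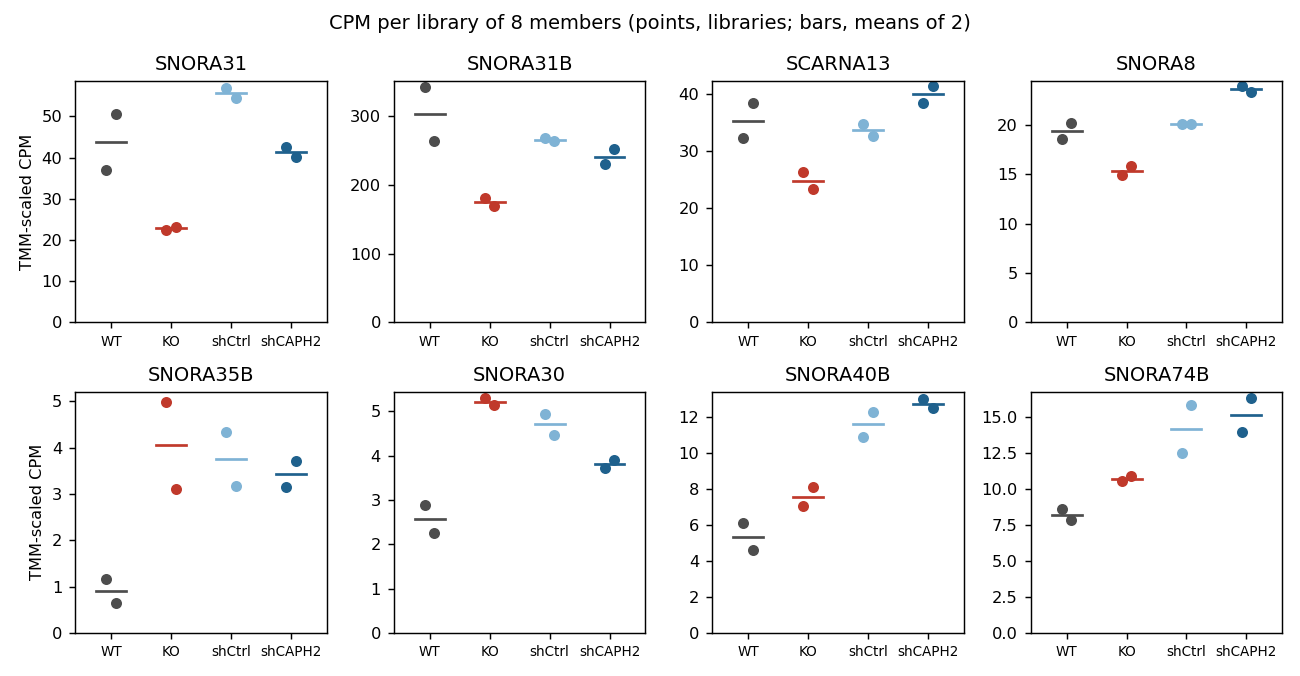
TMM-scaled CPM of 8 members in each library; points are libraries, bars the mean of 2, and each panel has its own axis from 0. Knockout points are lowest in the top row (SNORA31, SNORA31B, SCARNA13, SNORA8), and wild-type points are lowest in the bottom row (SNORA35B, SNORA30, SNORA40B, SNORA74B).

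Across the 87 pairs of a tested member and its tested host, knockout and wild type gave 7 pairs in which both were called and both moved the same way, 0 in which they moved in opposite ways, 6 with the member alone, 22 with the host alone and 52 with neither. The 7 were SNORA31 and SNORA31B with TPT1, SNORA73B with SNHG3, SNORA79 with GTF2A1, SNORA35B with LRCH2, SNORA74B with ATP6V0E1 and SNORA47 with ZBED3. Over the 87 pairs, which share the 4 libraries and some of the hosts, the fold changes of member and host had a Pearson r of 0.47 and a Spearman rho of 0.28, and over the 38 pairs with a member of at least 5 CPM these were 0.61 and 0.49. The same description gave -0.04 and -0.10 for knockdown against shControl and 0.05 and -0.01 for shControl against wild type. Of the tested members, 20 lie whole inside a transcript of another gene, SNORA31B among them. Reads of such a member and of that transcript cannot be told apart. Correlations without these members, or without the TPT1 pairs, with the largest host fall (-1.12), were not computed. The 7 shared calls were read against wild type alone. Against shControl, ATP6V0E1 was called higher (0.28, adjusted p = 0.00374) and SNORA74B lower (-0.40, adjusted p = 0.0278). LRCH2 was called higher (1.62, adjusted p = 5.84e-05), but SNORA35B was not called (0.11, adjusted p = 0.793). SNORA79 and SNORA47 were not called either, whereas TPT1 (-1.08, adjusted p = 3.09e-07) and its members were called lower.

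**Figure D3:**
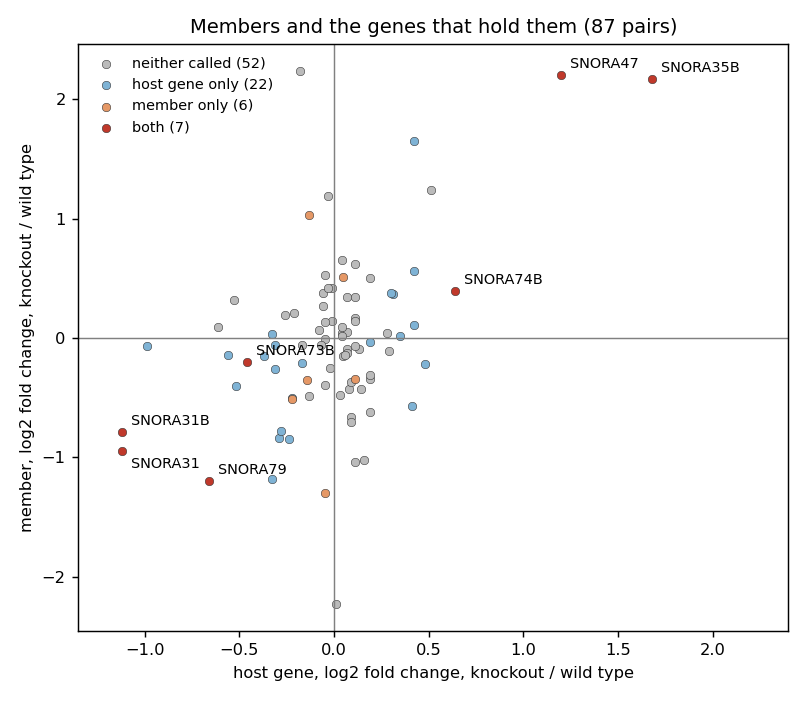
Log2 fold change, knockout against wild type, of each tested member (vertical axis) and of its host gene (horizontal axis) for 87 pairs; colours mark which of the pair was called. All 7 named pairs in which both were called lie at the lower left or upper right of the crossing lines. Members whose sequence lies inside a transcript of another gene, such as SNORA31B, are included.

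Where 1 host held several members, their fold changes in knockout against wild type ran in both directions in TAF1D, EIF4A2 and SNHG17. They shared a direction in TPT1 (-0.95 and -0.79), ATG16L1 (-0.26 and -0.06), KANSL2 (0.11, 0.56 and 1.65), CNOT1 (0.13 and 0.53), TBRG4 (0.09 and 0.02) and DKC1. Of the members that shared a direction, only those in TPT1 were called. Levels within TAF1D and within EIF4A2 were unlike. The 6 members in TAF1D ran from 4.90 CPM per kilobase for SNORA1 to 395 CPM per kilobase for SNORA18, and their fold changes in knockout against wild type from -1.04 for SNORA1 to 0.62 for SNORA32, with SNORA8 alone called. EIF4A2, a translation initiation helicase gene, holds SNORA81 at 596, SNORA4 at 209 and SNORA63 at 142 CPM per kilobase, with fold changes of -0.09, 0.34 and 0.05, none called. SNORA71A to SNORA71D in SNHG17 had 0.50, -0.62, -0.31 and -0.34, none called. DKC1, the gene of the pseudouridine synthase itself, holds SNORA56 and SNORA36A, which had 0.38 and 0.27, none called, beside -0.06 (adjusted p = 0.491) for DKC1.

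Knockdown of CAPH2 was then set against its own control. In this comparison 0 members rose and 1 fell of 92 (1.09% called), while 15.8% of all genes tested were called, 7.62% higher and 8.22% lower. At an unadjusted p under 0.05 there were 9 of the 92 members, against 4724 of the 16657 genes tested. DESeq2 called 0 higher and 1 lower of 85 members, and its share over all genes was not counted. The fallen member was SNORA31, at 56.9 and 54.5 CPM in the shControl and 42.7 and 40.2 CPM in the knockdown libraries. The groups did not overlap, and the fold change was -0.43 (SE 0.11, adjusted p = 0.0233). The call ended without any 1 of the 4 libraries compared, where the value stayed between -0.48 and -0.38 and the adjusted p reached 0.154. Its host TPT1 changed by 0.01 (adjusted p = 0.939), and SNORA31B from the same host by -0.14 (adjusted p = 0.407).

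Next in order in the knockdown came SNORA53, in the mitochondrial phosphate carrier gene SLC25A3, at 10.8 CPM in both shControl and 12.3 and 19.0 CPM in the knockdown libraries. Knockdown library 2 was the highest of the 8, and the value of 0.54 (SE 0.17) missed the threshold with an adjusted p of 0.0504. SNORA8 had 0.24 (adjusted p = 0.0756) and SCARNA21, in the chromatin remodeller gene CHD3, 0.40 (adjusted p = 0.0925). SCARNA10 had 0.06 (adjusted p = 0.766), whereas its host NCAPD2 fell by 0.38 on the log2 scale (adjusted p = 0.00515).

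The difference between the knockout and knockdown effects, which share no library, was tested directly. It was positive at the threshold for 4 members and negative for 7 of the 92, against 26.3% of all genes tested, 12.3% positive and 14.0% negative. The negative ones, lower in the knockout effect, were SNORA79 (-1.64), SNORA53 (-1.02), SCARNA13 (-0.76), SNORA31B (-0.65), SNORA8 (-0.57), SNORA31 (-0.52) and SNORA73B (-0.29). For SCARNA13 (adjusted p = 0.00139), SNORA8 (0.0037), SNORA31B (0.00536) and SNORA53 (0.00905) the call held without any single library. For SNORA31 (adjusted p = 0.0346), SNORA73B (0.0348) and SNORA79 (0.0228) it did not. For SNORA31 it was lost without any single library other than wild-type library 1 (-0.27, adjusted p = 0.0686, without wild-type library 2), and all 3 lost it without knockout library 2, shControl library 2 or either knockdown library. The positive ones were SNORA47 (3.0), SNORA35B (2.30), SNORA30 (1.33) and SNORA4 (0.76); the calls of SNORA35B (adjusted p = 0.00245) and SNORA30 (0.00258) held without any single library, and those of SNORA47 (0.0402) and SNORA4 (0.0391) did not.

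The 2 kinds of control cells differed as well. Between shControl and wild type 11 members rose and 0 fell of 92 (12% called), against 19.2% of all genes tested, 9.13% higher and 10.1% lower. At an unadjusted p under 0.05 there were 21 of the 92 members, against 5328 of the 16657 genes tested. DESeq2 called 13 higher and 0 lower of 85 members, and its share over all genes was not counted. The median was 0.16 over the members and 0.00 over all genes. Leaving out single libraries gave 4 to 20 members called higher, 20 without wild-type library 1 and 4 without shControl library 1. The members that rose were SNORA35B, SNORA40B, SNORA32, SNORA30, SNORA74B, SNORA20, SCARNA18, SNORA40, SNORA4, SCARNA1 and SNORA73B. This comparison shares its wild-type libraries with the first and its shControl libraries with the second, so its values are set beside theirs with no overlap drawn.

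SNORA40B stood at 10.9 and 12.3 CPM in the shControl libraries and at 6.12 and 4.60 CPM in the wild-type libraries (1.12, SE 0.15, adjusted p = 0.000493), with RAB3GAP1 at 0.01 (adjusted p = 0.925). Its near copy SNORA40 stood at 25.1 and 21.6 CPM against 16.7 and 13.8 CPM (0.62, SE 0.13, adjusted p = 0.00604). SNORA35B rose by 2.06 (SE 0.34, adjusted p = 0.00162), here beside 0.06 (adjusted p = 0.882) for its host LRCH2. Of these, SNORA40B and SNORA35B kept the call without any single library, and SNORA40 lost it without shControl library 1 (adjusted p = 0.0662).

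SNORA74B stood at 12.5 and 15.8 CPM in the shControl libraries against 8.56 and 7.82 CPM (0.79, SE 0.14, adjusted p = 0.0022), with ATP6V0E1 at 0.36 (adjusted p = 0.00275). SCARNA18, in TMEM167A, stood at 24.1 and 20.4 CPM against 12.9 and 15.0 CPM (0.67, SE 0.13, adjusted p = 0.00377), with its host at -0.04 (adjusted p = 0.718). SNORA20 rose by 0.78 (SE 0.16, adjusted p = 0.0057), from 15.4 and 14.6 CPM to 28.9 and 22.6 CPM, while its host TCP1, a chaperonin subunit gene, fell by 0.31 on the log2 scale (adjusted p = 0.000993). The SNORA20 and TCP1 values moved in opposite ways, and the SNORA20 call was lost without shControl library 1 (adjusted p = 0.0622). The other calls were SNORA32 (0.95, adjusted p = 0.0131), SNORA30 (0.88, adjusted p = 0.00753), SNORA4 (0.61, adjusted p = 0.0312), SCARNA1 (0.36, adjusted p = 0.0174) and SNORA73B (0.20, adjusted p = 0.0453), each lost without shControl library 1.

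**Figure D4:**
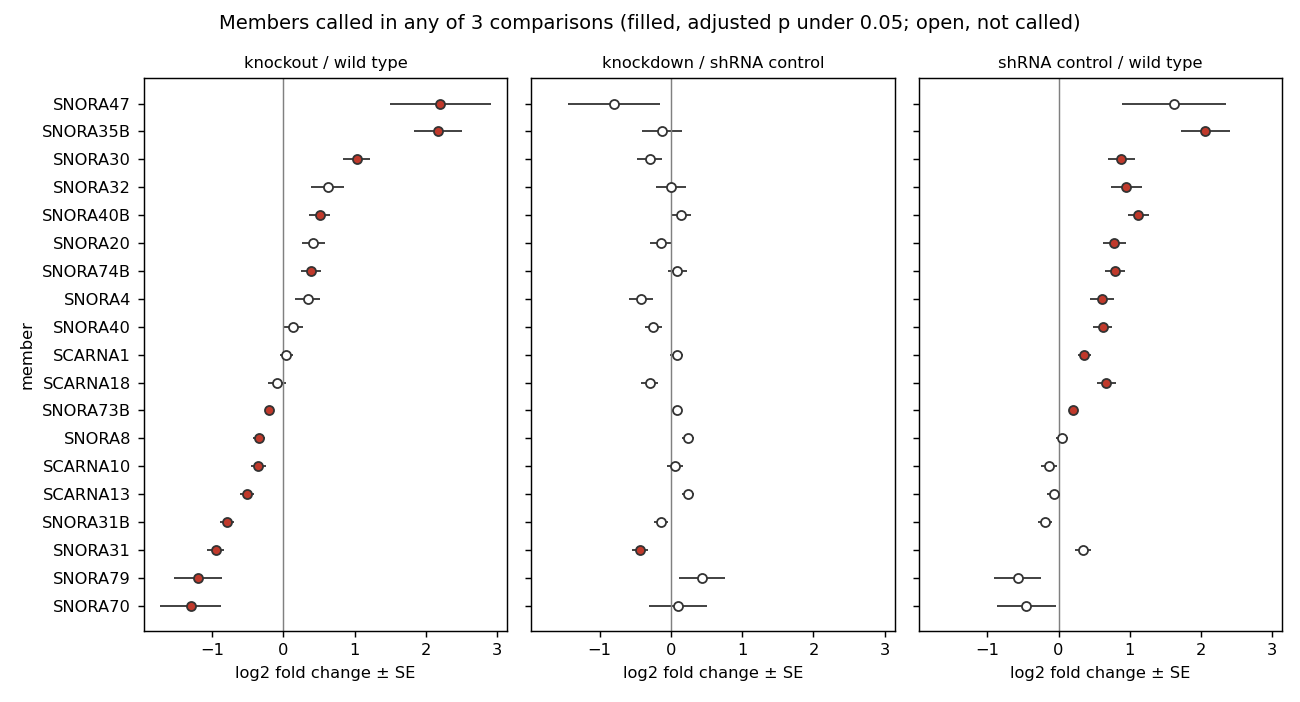
Log2 fold change with its SE for the 19 members called in any of 3 comparisons, ordered by knockout against wild type; filled points have an adjusted p under 0.05 and open points do not. The knockdown panel has 1 filled point, SNORA31, and all filled points of the shControl panel lie above 0. The knockout and shControl panels share the wild-type libraries.

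Because the control groups differed, knockout was also set against shControl. There 1 member, SCARNA12, was higher and 19 were lower of 92 (21.7% called), against 41.8% of all genes tested, 20.9% higher and 20.9% lower, and the median of the members was -0.30. SNORA31 (-1.29, adjusted p = 4.75e-06), SNORA31B (-0.60, adjusted p = 0.000548), SCARNA13 (-0.45, adjusted p = 0.00278), SNORA8 (-0.38, adjusted p = 0.00302) and SNORA73B (-0.40, adjusted p = 0.000386) were lower in knockout against either control. SNORA35B (0.11, adjusted p = 0.793) and SNORA30 (0.15, adjusted p = 0.534) were not called against shControl. Nor were SNORA47 (0.58, adjusted p = 0.467), SCARNA10 (-0.22, adjusted p = 0.125), SNORA70 (-0.85, adjusted p = 0.135) and SNORA79 (-0.63, adjusted p = 0.161). SNORA40B (-0.61, adjusted p = 0.00468) and SNORA74B (-0.40, adjusted p = 0.0278) changed direction, from higher than wild type to lower than shControl. SNORA37, in the methyl-DNA binding protein gene MBD2, stood at 2.48 and 3.01 CPM in the wild-type, 1.92 and 1.57 CPM in the knockout, 3.93 and 4.69 CPM in the shControl and 3.03 and 5.13 CPM in the knockdown libraries. Its fold change against shControl was -1.31 (SE 0.27, adjusted p = 0.00228), with -0.66 (adjusted p = 0.0961) against wild type; it was named after its values were seen. Which control is nearer to the knockout cells was not tested.

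The order of the 8 libraries is a description without a test. In 21 of the 92 members (22.8%) both knockout libraries were the lowest of the 8, against 19.4% of all genes tested. In 4 members (4.35%), SCARNA12, SNORA22B, SNORA2B and SNORA30, they were the highest, against 20.1% of all genes. The wild-type libraries were the 2 lowest in 8 members (8.70%), SNORA20, SNORA30, SNORA32, SNORA35B, SNORA40B, SNORA47, SNORA60 and SNORA74B, against 8.96% of all genes, and the 2 highest in 0 members, against 9.21%.

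**Figure D5:**
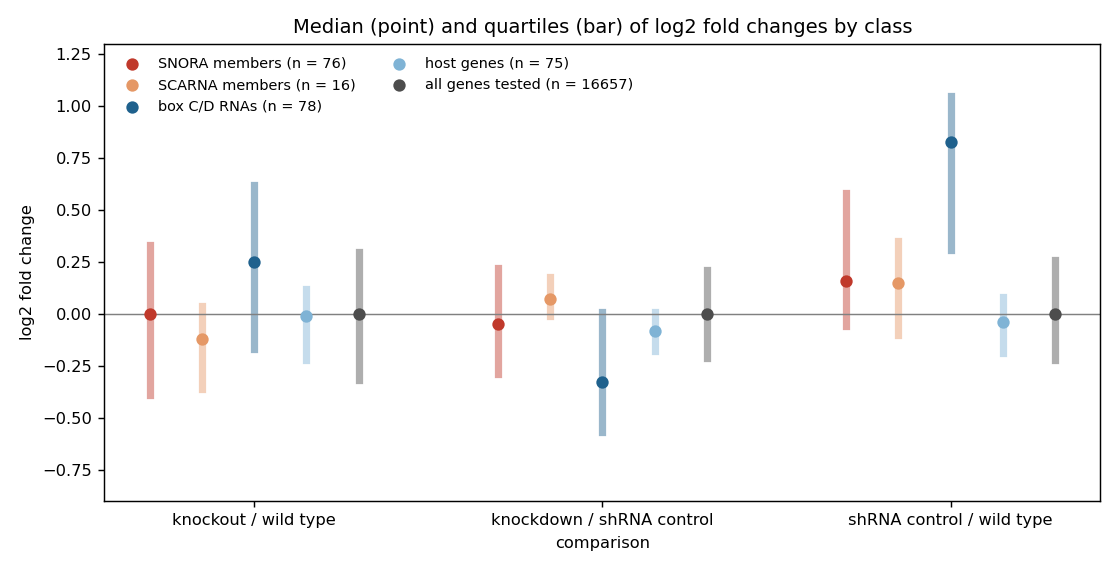
Median (point) and quartiles (bar) of the log2 fold changes of SNORA members, SCARNA members, box C/D RNAs, host genes and all genes tested, in 3 comparisons. Box C/D RNAs lie highest in shControl against wild type, with a median of 0.83, where SNORA and SCARNA members lie at 0.16 and 0.15 and host genes at -0.04.

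By class, the 76 tested SNORA members had 5 higher and 6 lower in knockout against wild type and 9 higher and 0 lower in shControl against wild type, with medians of 0.00 and 0.16. These were 14.5% and 11.8% called, against 34.5% and 19.2% of all genes tested. The 16 tested SCARNA members had 0 higher and 2 lower, then 2 higher and 0 lower, with medians of -0.12 and 0.15 (12.5% called in each). Of 78 tested box C/D RNAs, 8 were higher and 3 lower in knockout against wild type (median 0.25), 0 higher and 4 lower in knockdown against shControl (median -0.33), and 24 higher and 0 lower in shControl against wild type (median 0.83). The shares called were 14.1%, 5.13% and 30.8%, against 34.5%, 15.8% and 19.2% of all genes tested. The 75 tested host genes had 11 higher and 16 lower, 3 higher and 9 lower, and 5 higher and 14 lower in the same comparisons, with medians of -0.01, -0.08 and -0.04. Their shares called, 36.0%, 16.0% and 25.3%, are read against the same shares of all genes. The part of the box C/D shift, or of the capture of RNAs as short as 121 bases by the library kit, in the members' values was not tested.

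The mRNAs of the proteins that bind and assemble these RNAs were read from lists. Of the 4 core protein genes, 1 (25%) was called in the knockout and 1 in the knockdown, against 34.5% and 15.8% of all genes tested: NOP10 rose in knockout against wild type, from 43.9 and 38.3 to 52.3 and 48.3 CPM (0.29, SE 0.08, adjusted p = 0.0181), and DKC1 fell in knockdown against shControl, from 367 and 353 to 309 and 310 CPM (-0.22, SE 0.06, adjusted p = 0.032). GAR1 had 0.33 (adjusted p = 0.187) and -0.30 (adjusted p = 0.326) in these comparisons and NHP2 0.09 (adjusted p = 0.468) and -0.04 (adjusted p = 0.812). Between the control groups 0 of the 4 were called by edgeR, against 19.2% of all genes tested. At an unadjusted p under 0.05 there were 0 of the 4, against 5328 of the 16657 genes tested. Of 7 assembly factor genes, 3 rose and 1 fell in the knockout (57.1% called, against 34.5% of all genes tested), 0 were called in the knockdown, and 0 rose and 2 fell in shControl against wild type (28.6%, against 19.2%). RPAP3 (0.74, adjusted p = 1.82e-05), NUFIP1 (0.71, adjusted p = 3.02e-05) and RUVBL1 (0.27, adjusted p = 0.00179), parts of the chaperone machinery that loads guide RNA proteins, rose, and SHQ1 (-0.37, adjusted p = 0.0111), the early chaperone of DKC1, fell. SHQ1 was lower in shControl than in wild type as well (-0.55, adjusted p = 0.00268). Knockout against shControl gave 0.18 (adjusted p = 0.177), so its fall in the knockout was called against wild type alone. RPAP3, NUFIP1 and RUVBL1 were called higher against shControl too, at 0.85, 0.70 and 0.44.

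Of 14 Cajal body genes, 1 rose and 2 fell in the knockout (21.4% called, against 34.5% of all genes tested) and 0 rose and 5 fell in the knockdown (35.7%, against 15.8%). In shControl against wild type 0 rose and 5 fell (35.7%, against 19.2%). COIL had -0.02 (adjusted p = 0.807) and -0.10 (adjusted p = 0.237), and WRAP53, which brings these RNAs to the Cajal body, 0.10 (adjusted p = 0.83) and 0.59 (adjusted p = 0.204) at 1.31 to 2.58 CPM. The 5 that fell in the knockdown were TCOF1 (-0.57, adjusted p = 0.000135), NOLC1 (-0.32, adjusted p = 0.00164), ICE1 (-0.29, adjusted p = 0.00961), SMN1 (-0.27, adjusted p = 0.00766) and SART3 (-0.17, adjusted p = 0.0479). SMN1 has a near-identical copy, SMN2, so its value is uncertain. Of 22 genes for trimming and decay of small RNAs, 5 rose and 3 fell in the knockout (36.4% called, near the 34.5% of all genes tested) and 4 rose and 2 fell in the knockdown (27.3%, against 15.8%). In shControl against wild type 2 rose and 7 fell (40.9%, against 19.2%). RBM7, an adaptor of the nuclear exosome, had the largest knockout fall of that list, from 33.2 and 34.2 to 17.8 and 14.4 CPM (-1.06, SE 0.09, adjusted p = 5.51e-06). NRDE2, which restrains the exosome adaptor complex, fell in knockout (-0.58, adjusted p = 6.89e-05) and rose in knockdown (0.44, adjusted p = 0.00098).

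TERC, the RNA of telomerase, ends in an H/ACA domain but does not carry a SNORA or SCARNA name. It stood at 45.4 and 38.5 CPM in the wild-type, 50.8 and 64.4 CPM in the knockout, 56.3 and 62.9 CPM in the shControl and 52.6 and 49.0 CPM in the knockdown libraries. The wild-type libraries were the 2 lowest, with 0.46 (SE 0.11, adjusted p = 0.00851) for knockout and 0.51 (SE 0.11, adjusted p = 0.00952) for shControl against wild type. TERT, the protein subunit of telomerase, had 0.34 (adjusted p = 0.521) and -0.28 (adjusted p = 0.662) at group means of 0.62 to 1.59 CPM. In knockdown against shControl TERC had -0.23 (adjusted p = 0.203).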

How the data were processed

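Expected counts for each Ensembl gene were deposited by the authors as 1 table with a column for each of the 8 libraries. Per the submitters' processing notes, Bowtie2 and RSEM 1.2.12 were used with hg19; the sources used here state neither the Bowtie2 version nor the gene annotation nor the strand setting. Libraries came from DNase-treated total RNA with a TruSeq Total RNA kit, per the labels' protocols. The values were whole numbers already. RSEM divides reads that match several genes, so near-identical copies and overlapping genes are uncertain.

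Sequences, lengths, coordinates and hosts (the same-strand gene containing a member) came from GENCODE 29 on GRCh38, matched by gene ID; 1 member was named by GENCODE 29 alone. All genes were fitted in R 4.3.3 with edgeR 4.0.16: filterByExpr by group (16657 genes, 92 of 97 members), TMM scaling, and a quasi-likelihood F-test on group means of all 8 libraries with no block (4 residual degrees of freedom). P-values were adjusted by Benjamini-Hochberg over all genes tested, and those under 0.05 were called. The SE is the fold change over the root of its F. Differences between libraries of a group used log2 of CPM plus 0.5.

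Named were TERC, DKC1, GAR1, NHP2, NOP10, WRAP53, COIL, ARID1A and NCAPH2, the 12 members with the highest mean CPM, per comparison the 8 largest called rises and falls, members at the threshold, and hosts of these; other names were chosen after their values were seen. The members and lists were chosen with earlier results of these data known. Lists were described by counts and medians, and 5 of their genes were not matched. Alternatives were DESeq2 1.42.0, other scalings, no filter, a replicate block, fits without each library or with 4 libraries, and knockout against shControl.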

Additional observations from a re-analysis of the deposited data

How the results depend on the processing

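RLE size factors and scaling from protein-coding genes gave the same counts of called members in every comparison, except that RLE called 1 member higher in knockdown against shControl. With no low-count filter the calls rose to 11 higher and 16 lower (knockout against wild type), 6 and 2 (knockdown against shControl), 22 and 1 (shControl against wild type) and 7 and 14 (knockout effect minus knockdown effect); the cause was not tested. Only the 4 libraries compared gave 2 higher and 2 lower in the knockdown. Against shControl in place of wild type, the knockout had 1 member higher and 19 lower, and 4 named members turned from above 0 to below it. SNORA40B turned from 0.51 to -0.61 and SNORA74B from 0.39 to -0.40, both called against wild type. SNORA40 turned from 0.14 (adjusted p = 0.465) to -0.48 and SCARNA1 from 0.04 (adjusted p = 0.8) to -0.33, neither called against wild type. Leaving out each library in turn gave 3 to 11 higher and 4 to 14 lower in the knockout, 0 to 6 and 0 to 1 in the knockdown, 4 to 20 and 0 to 1 in shControl against wild type, and 2 to 12 and 4 to 10 in the difference of effects. Deviations of same-numbered libraries correlated between groups at -0.024 to 0.03. Such values cannot establish whether same-numbered libraries were prepared together. With a replicate block 7 members were called higher and 9 lower in the knockout, and 0 and 1 in the knockdown. That block gave 13 and 0 in shControl against wild type and 4 and 7 in the difference. The alternatives gave 1564 values, those of named members and the medians over the members. Of these, 1370 stayed the same: a member kept its side of the threshold, or a median moved by less than 0.0778. Among the named members' values, 99 lost a call, 80 gained one and 4 turned, and 11 medians moved. Of the 53 tested members under 5 CPM, edgeR called 3 higher and 2 lower in the knockout (9.43%, against 34.5% of all genes tested). In the knockdown it called 0, against 15.8% of all genes tested. There 0 of these members had an unadjusted p under 0.05, against 4724 of the 16657 genes tested.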
